A study of Mus musculus with 6 samples.

Results

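Gpr15 and 5 further genes that guide T cells into the gut wall and other mucosal tissue, or hold them there, were followed across the regulatory T cell (Treg) arrays of this series. The 6 genes, Gpr15, Ccr9, Itgae, Itgb7, Itga4 and Itgb1, were chosen by their role together with the measured difference of Gpr15 between the 2 groups of these same arrays. Every difference between the groups given for them is therefore a description, and none of them is tested. They were represented by 20 probe sets, those that the platform annotation assigns to 1 of the 6 symbols alone, out of 45037 probe sets on the array that are not controls, or 6 of 18193 genes. Gpr15 and Itgb7 had 1 probe set each, Itgae 2, Ccr9 and Itga4 5 each, and Itgb1 6.

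All cells came from female NOD mice, a strain prone to autoimmune diabetes, that carried the transgenic BDC2.5 T cell receptor and the Foxp3GFP reporter, which makes Foxp3-expressing cells fluoresce. The 3 treated mice were RAG1o/o, so they could not rearrange receptor genes of their own and lack other T and B cells. They received 37.5 µg of the anti-CD3 antibody KT3 intravenously on each of 5 days, the first at 17 days of age. They were sampled at 28 or 29 days, given as 11 or 12 days after treatment. By these ages, the days after treatment count from the first injection. The 3 untreated mice were RAG1+/o, so they could form other lymphocytes, and were also 28 or 29 days old. CD4+ GFP+ spleen cells without B220, CD8a and CD11b or CD11c were sorted, and each mouse supplied 1 array. Antibody treatment and RAG1 genotype differed together and cannot be told apart, and each group is named below by both or as treated and untreated.

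Lymphocytes enter a tissue in steps: a chemokine receptor senses a local ligand, an integrin is switched on, and the integrin grips its counter-receptor on the vessel wall. GPR15 is a G protein-coupled receptor that draws T cells, Tregs among them, to the large intestine in mice. CCR9 answers to the chemokine CCL25 of the small intestine and thymus. The integrin chains encoded by Itga4 and Itgb7 pair to bind the mucosal addressin MAdCAM, Itga4 with Itgb1 binds VCAM on inflamed vessels, and Itgae with Itgb7 binds E-cadherin on epithelial cells. The αE chain, also called CD103, is present on many effector Tregs.

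The values are log2 of the RMA intensities, and array medians lay between 6.41 and 6.53, so a probe set near 6.5 is of middling brightness. Probe sets of different genes bind with different strength, so levels are set side by side within a probe set only. Of the 20, 11 reached an intensity of 100 (6.64 on the log2 scale) on at least 3 arrays. The other 9 had values of 3.09 to 8.64 and differences of −0.51 to 0.51. Defining markers of the sorted cells were bright on every array, with Cd3e at 11.97, 12.02 and 12.16 in treated samples and 11.82, 11.62 and 11.78 in untreated ones. Cd8a, absent from the sorted type, lay between 6.83 and 7.16 on all arrays. These values are above the limit of 6.64, so passing it does not by itself show that a gene is expressed. Foxp3 was at 11.43, 11.46 and 12.44 in treated samples and at 10.75, 9.95 and 11.07 in untreated ones.

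Marker lists of other cells moved with the groups and with single arrays, although the sort selected against B220, CD8a and CD11b or CD11c. The 14 measured of 15 B cell markers all had lower means in treated samples, and their average was 6.66 to 6.80 there, against 9.73, 9.66 and 7.13 in untreated replicates 1, 2 and 3. Ms4a1, a defining B cell gene, measured 6.50, 6.66 and 6.30 in treated samples and 12.95, 12.93 and 8.97 in untreated ones. The 18 measured of 20 myeloid and dendritic markers averaged 9.72, 8.52 and 9.42 over the treated samples, against 9.26, 9.10 and 6.88 over the untreated samples, both in replicate order. Of these 18, 16 had higher means in treated samples and 2 had lower ones. All 8 plasma cell markers, like the B cell ones, had lower means in treated samples. Their average was 7.97, 8.06 and 7.98 there, against 9.34, 9.46 and 8.38 in untreated samples, without overlap. Prdm1 and Irf4 of this list were at 9.61 or above on all arrays, so its mean does not read plasma cells alone. Jchain, the antibody joining chain gene, and Mzb1 differed by −5.27 and −1.51, and the rest of the list by −0.44 to −0.05. Jchain measured 5.73, 5.83 and 5.60 in treated samples and 12.50, 13.43 and 7.04 in untreated ones. Untreated replicate 3 thus stood apart with the lowest myeloid mean of all arrays and the lowest B cell mean of its group. Differences of the bright probe sets that depend on it are given with and without it. The 3′ minus 5′ signal of the Actb control, which grows with RNA degradation and short amplified products, ran from 1.42 to 3.62 in treated samples and from 0.92 to 1.95 in untreated ones. Treated replicate 3 was highest and untreated replicate 3 lowest in this measure. RAG1o/o mice lack B cells, as given above. For cell types that both groups form, fewer cells of a type and less RNA per cell cannot be told apart in such bulk samples.

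**Figure D1:**
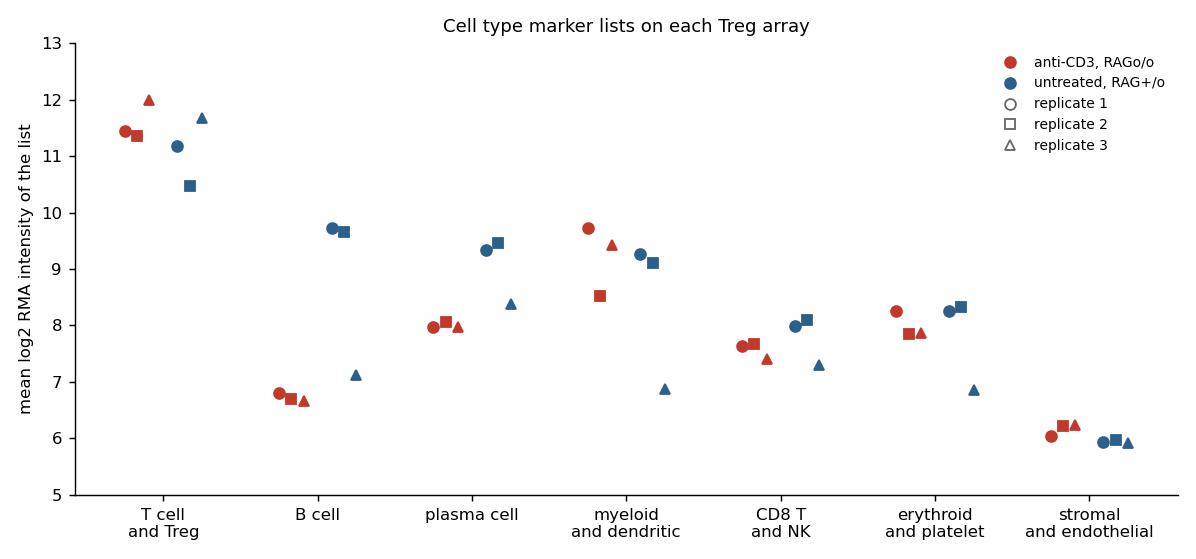
Mean log2 RMA intensity (vertical axis) of each cell type marker list (horizontal axis) on the 6 arrays, with 1 point per array, colour for the group and shape for the replicate number. B cell means of untreated replicates 1 and 2 (9.73 and 9.66) lie above all others, and untreated replicate 3 has the lowest myeloid mean (6.88).

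Gpr15, read by probe set 1431296_at, had lower values in Tregs of treated RAG1o/o mice. It measured 9.22, 9.49 and 8.98 in treated replicates 1, 2 and 3, against 11.15, 10.38 and 11.81 in untreated replicates 1, 2 and 3. All treated values lay below all untreated ones, and the untreated samples were spread more widely. The means were 9.23 ± 0.26 in treated and 11.11 ± 0.71 in untreated samples (SD, n = 3 each), a 3.68-fold lower level with a log2 difference of −1.88 ± 0.36 (SE of the limma fit). Of all probe sets, 62 had a difference this low or lower, or 0.138%, and Gpr15 itself was picked from this contrast.

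As the groups did not overlap, any split of the arrays gives a negative difference, and only its size is described here. The labels number the array files, with replicates 1 and 2 of both groups close together and both replicates 3 further on. Within the first set Gpr15 differed by −1.41, and between the replicates 3 by −2.82. Treated replicate 3 also had the highest Actb 3′ minus 5′ signal of all arrays (3.62) and untreated replicate 3 the lowest (0.92). The part of RNA quality in the Gpr15 difference was not tested. Without untreated replicate 3 the Gpr15 difference was −1.53, and against that sample alone it was −2.58. Gpr15 was highest in this untreated sample, which had the lowest B cell, plasma cell and myeloid means of its group. Over the 6 arrays its level correlated with the B cell mean at a Pearson r of 0.50, with the plasma cell mean at 0.57, with the myeloid mean at −0.69 and with the mean of 7 T cell and Treg markers at −0.24. These values describe 6 arrays on which gene and markers share the RNA, and the part of other cells in the Gpr15 difference was not tested.

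**Figure D2:**
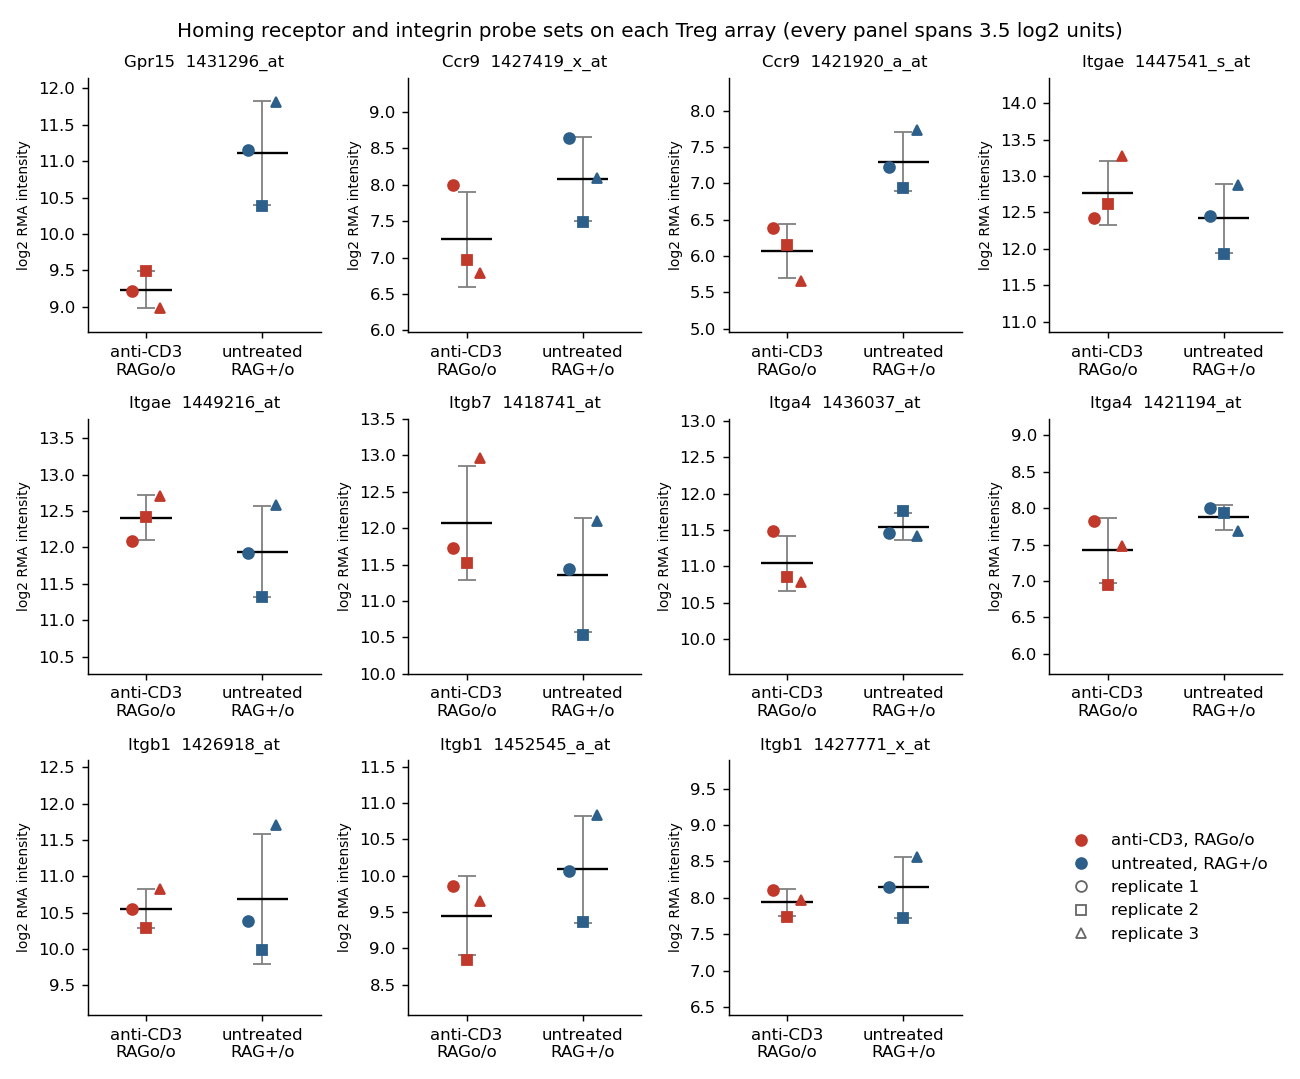
Log2 RMA intensity (vertical axes, 3.5 units in each panel) of the 11 probe sets that reached 100 on at least 3 arrays, for anti-CD3 RAGo/o and untreated RAG+/o Tregs. Points are single arrays, the black line is the mean and the bar 1 SD (n = 3). Gpr15 and Ccr9 1421920_a_at are the panels without overlap between the groups.

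The stretch before the Gpr15 start site is shown because this gene had the largest difference of the 6, beside that of Ccr9, which also had lower values, and that of Itgb7, which had higher ones. Sequences are the 250 bases upstream of the start in the RefSeq promoter table (GRCm38.p6), where 5 of the 6 genes were matched, all but Itgae. They are written 5′ to 3′ on the strand of the gene, with matches to the Runx motif TGTGGT on either strand in capitals. The Gpr15 stretch lies on the minus strand at chr16:58718873-58719122, that of Ccr9 on the plus strand at chr9:123766961-123767210 and that of Itgb7 on the minus strand at chr15:102231936-102232185.
Gpr15: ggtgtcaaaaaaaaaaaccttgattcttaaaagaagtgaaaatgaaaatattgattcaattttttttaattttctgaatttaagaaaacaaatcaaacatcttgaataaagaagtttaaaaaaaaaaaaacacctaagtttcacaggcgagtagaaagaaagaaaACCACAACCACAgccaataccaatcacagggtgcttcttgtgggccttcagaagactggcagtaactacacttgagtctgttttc
Ccr9: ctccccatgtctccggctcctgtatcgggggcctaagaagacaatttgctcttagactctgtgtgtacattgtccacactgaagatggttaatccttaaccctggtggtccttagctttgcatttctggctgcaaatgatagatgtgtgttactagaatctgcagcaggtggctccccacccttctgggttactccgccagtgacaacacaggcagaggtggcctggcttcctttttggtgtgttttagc
Itgb7: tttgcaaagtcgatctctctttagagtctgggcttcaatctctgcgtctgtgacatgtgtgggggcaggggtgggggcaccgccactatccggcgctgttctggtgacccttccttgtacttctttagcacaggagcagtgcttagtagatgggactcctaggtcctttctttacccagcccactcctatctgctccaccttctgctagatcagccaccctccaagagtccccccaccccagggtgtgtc

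The Gpr15 stretch held 2 Runx matches side by side, starting 85 and 79 bases before the start site. Runx factors are core transcription factors of T cells and partners of Foxp3. Of 32851 promoters in the table, 14.0% held at least 1 such match in the same window and 1.27% held 2 or more. The Itga4 window held 1 match, while those of Ccr9, Itgb7 and Itgb1 held none. The AP-1 motif TGANTCA was found once before Gpr15 and in none of the other 4 windows, and 6.75% of all promoters held it. Neither the core GCGTG bound by the aryl hydrocarbon receptor, nor the nuclear receptor half-site AGGTCA, nor the GATA motif AGATAA was found in any of the 5 windows. They occurred in 28.2%, 14.0% and 9.99% of all promoters. A match is a string of letters and does not show that a factor binds there.

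Ccr9, the small intestine receptor, had lower values on its brighter probe sets. The brightest, 1427419_x_at, measured 8.0, 6.97 and 6.79 in treated samples and 8.65, 7.49 and 8.09 in untreated ones. The groups overlapped through treated replicate 1, and the difference was −0.82 ± 0.40 (SE). The name of this probe set marks it as one whose probes may bind other transcripts too.

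On 1421920_a_at, Ccr9 measured 6.39, 6.15 and 5.66 in treated samples and 7.23, 6.93 and 7.74 in untreated ones. All treated values were lower, by 2.35-fold (−1.24 ± 0.28), but each of them lay under the intensity of 100, so this probe set passed the brightness limit through the untreated samples alone. The other 3 Ccr9 probe sets were dim and differed by −0.51, −0.02 and 0.24. Both brighter ones kept a negative difference under every alternative that was run. For 1427419_x_at the difference ran from −1.19 to −0.54 (without untreated replicate 1). For 1421920_a_at it ran from −1.67, against untreated replicate 3 alone, to −1.02, without that sample. The groups did not overlap on 1421920_a_at, so leaving out samples could not turn its sign. As with Gpr15, the gap was wider between the replicates 3, at −1.30 and −2.08, than within replicates 1 and 2, at −0.58 and −0.81. The replicates 3 also had the highest and lowest Actb 3′ minus 5′ signal of all arrays. Over the 6 arrays both probe sets correlated at r = 0.51 with the B cell mean. With the plasma cell mean r was 0.48 for 1427419_x_at and 0.57 for 1421920_a_at, and with the myeloid mean −0.13 and −0.63. Among the untreated samples 1421920_a_at was highest in replicate 3, which had the lowest B cell mean of its group. There 1427419_x_at was highest in replicate 1, which had the highest B cell mean. The part of B, plasma and myeloid cells in the Ccr9 values was not tested.

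Itgae and Itgb7, whose products form the E-cadherin receptor of mucosal T cells, were bright on every array, and their means were higher in treated Tregs with overlapping groups. Itgb7 measured 11.73, 11.52 and 12.97 in treated samples and 11.44, 10.53 and 12.10 in untreated ones. Treated replicate 3 and untreated replicate 3 were the high ones and untreated replicate 2 the low one, so the groups overlapped. The difference was 0.72 ± 0.50 (SE), from means of 12.07 ± 0.78 in treated and 11.36 ± 0.79 in untreated samples (SD, n = 3 each).

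Itgae was read by 2 probe sets that ran in parallel, with r = 0.95 over the 6 arrays. On 1449216_at it measured 12.09, 12.42 and 12.71 in treated samples and 11.93, 11.32 and 12.58 in untreated ones. On 1447541_s_at, whose name marks possible binding to related transcripts, it measured 12.43, 12.62 and 13.27 in treated samples and 12.45, 11.93 and 12.88 in untreated ones. The groups overlapped on both, with differences of 0.47 ± 0.33 and 0.35 ± 0.31. Single samples set the size of these differences. Without untreated replicate 3, Itgb7 differed by 1.09, Itgae 1449216_at by 0.78 and Itgae 1447541_s_at by 0.58, whereas against that sample alone the values were −0.02, −0.17 and −0.11. Without untreated replicate 2 they were 0.31, 0.15 and 0.11, and without treated replicate 3 they were 0.27, 0.31 and 0.10, all in the same gene order.

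The levels of Itgae and Itgb7 went up and down together from array to array. Their brightest probe sets correlated at r = 0.97 over the 6 arrays, and each correlated with the mean of the T cell and Treg markers, at 0.97 for Itgb7 and 0.96 for both Itgae probe sets. In replicate order, the T cell and Treg mean stood at 11.45, 11.36 and 12.00 for treated samples against 11.17, 10.47 and 11.68 for untreated samples, and Itgb7 ranked the 6 arrays in the same order. Both genes were inversely related to the B cell mean, with r between −0.82 and −0.69. Over all 6 arrays Gpr15 did not follow this pattern, with r of −0.28 against Itgb7 and −0.18 against Itgae. Among the untreated samples alone it ranked as Itgb7 and Itgae did, with replicate 3 highest and replicate 2 lowest. Among the treated samples replicate 3 was lowest for Gpr15 and highest for Itgb7 and Itgae. The genes share arrays, and the part of T cell content in the values of Itgae and Itgb7 was not tested.

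**Figure D3:**
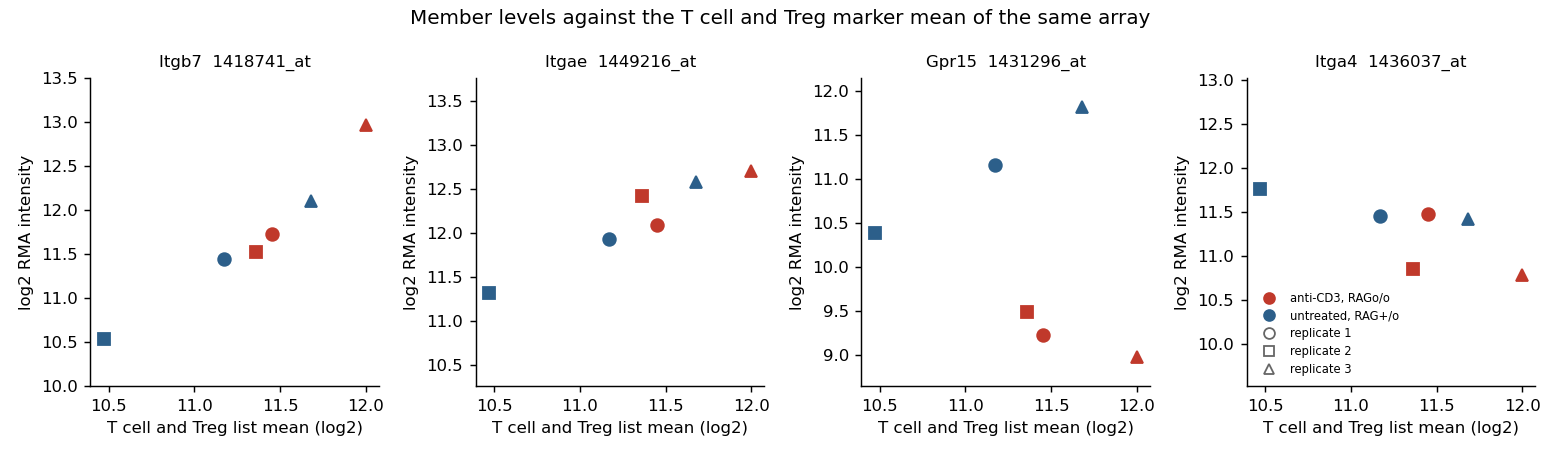
Log2 RMA intensity of Itgb7, Itgae, Gpr15 and Itga4 (vertical axes, 3.5 units each) against the mean log2 intensity of the T cell and Treg markers on the same array (horizontal axes), with 1 point per array. Itgb7 and Itgae climb with the marker mean (r = 0.97 and 0.96), whereas all 3 treated Gpr15 points lie below the untreated ones.

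Itga4, the α chain shared by the receptors for MAdCAM and VCAM, had somewhat lower values in treated Tregs on the 2 probe sets that were bright enough. On 1436037_at it measured 11.48, 10.85 and 10.79 in treated samples and 11.46, 11.76 and 11.42 in untreated ones. Treated replicates 2 and 3 lay below all untreated values and treated replicate 1 among them, and the difference was −0.51 ± 0.23 (SE). On 1421194_at it measured 7.83, 6.95 and 7.48 in treated samples and 8.0, 7.94 and 7.68 in untreated ones, a difference of −0.45 ± 0.25.

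Both kept a negative difference under the alternatives, the smallest being −0.22 with array weights for 1436037_at and −0.22 without treated replicate 2 for 1421194_at. Among the untreated samples, replicate 3 was the lowest on both Itga4 probe sets but the highest on the bright probe sets of Itgae, Itgb7 and Itgb1. Over the 6 arrays 1436037_at correlated at r = −0.78 with Itgae, −0.70 with Itgb7 and −0.14 with Itgb1. Its correlation was −0.71 with the T cell and Treg mean and 0.68 with the B cell mean, and B cells also carry this integrin. The part of B cell transcripts in the Itga4 difference was not tested. Of the 3 dim probe sets, 1456498_at reached 8.64 in treated replicate 1 alone, against 5.54 to 6.61 elsewhere, and its difference of 0.51 turned to −0.37 without that sample.

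Itgb1, the β chain of the VCAM receptor and of many matrix receptors, was not separated between the groups on any bright probe set. On 1426918_at it measured 10.55, 10.29 and 10.83 in treated samples and 10.39, 9.99 and 11.70 in untreated ones. Untreated replicate 3 was the highest by a wide margin and untreated replicate 2 the lowest. The difference was −0.13 ± 0.43 (SE), and it turned to 0.37 without untreated replicate 3 and was −1.14 against that sample alone.

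On 1452545_a_at Itgb1 measured 9.86, 8.84 and 9.65 in treated samples and 10.07, 9.36 and 10.83 in untreated ones, a difference of −0.64 ± 0.42. The third bright probe set, 1427771_x_at, differed by −0.21 ± 0.24. Without untreated replicate 3 the 2 differences were −0.27 and 0.00, and against that sample alone −1.38 and −0.62. Without treated replicate 2 they were −0.33 and −0.11, and without untreated replicate 2 they were −1.0 and −0.42. The 3 bright probe sets correlated at r of 0.80 to 0.96 with each other over the 6 arrays. The other 3 were at 4.89 or below on all arrays. One of these, 1438119_at, had no overlap between the groups, at 3.09 to 3.18 in treated and 3.27 to 3.34 in untreated samples, which is among the dimmest 2.0% of probe sets.

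**Figure D4:**
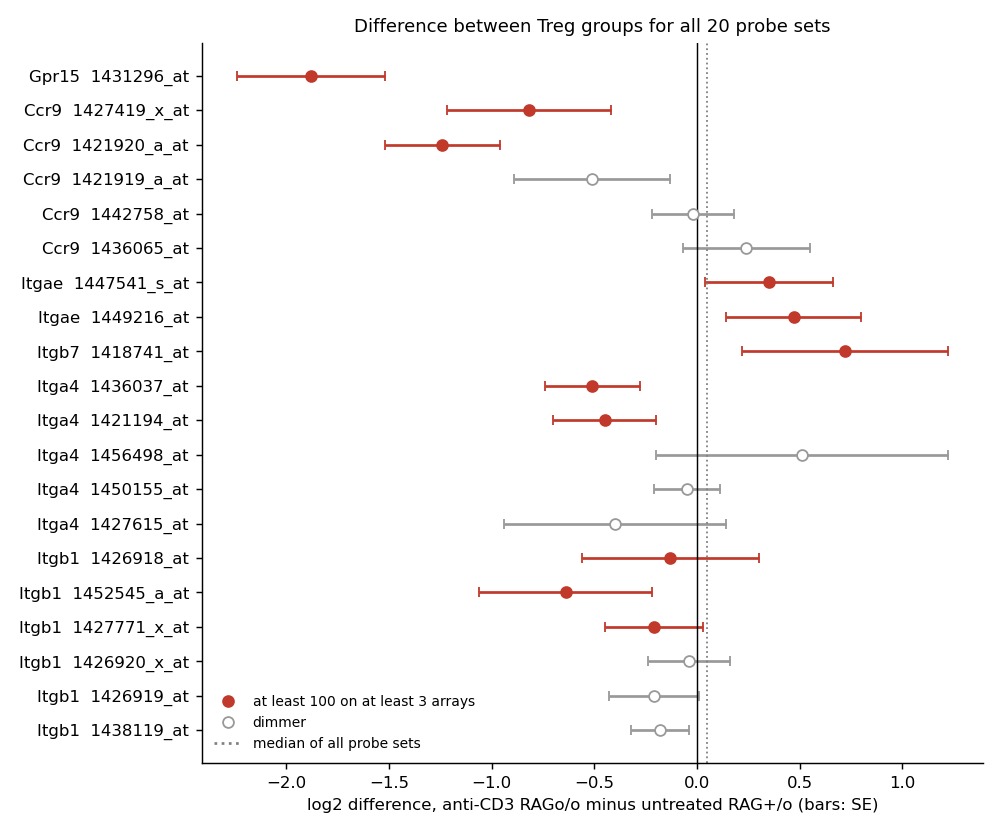
Log2 difference of treated minus untreated Tregs (horizontal axis) for all 20 probe sets (rows), with bars for the SE of the limma fit. Filled points reached 100 on at least 3 arrays, open ones did not, and the dotted line is the median of all probe sets. Gpr15 lies farthest from 0, at −1.88, and Itgb7 highest, at 0.72.

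Of the 20 differences, 15 were negative and 5 positive, and their median was −0.19. Over all 45037 probe sets the median was 0.05, and 42.0% were below 0. The groups did not overlap in 3 of the 20, all lower in treated samples, against 5.02% of all probe sets lower and 5.14% higher without overlap. Since the genes were selected with this contrast known, nothing is read from that comparison. By limma with Benjamini-Hochberg adjustment, 0 of all probe sets passed an adjusted p of 0.05, which is 0%, and so 0 of the 20. At an unadjusted p under 0.05, limma gave 3.00% of all probe sets as lower and 1.53% as higher. Without untreated replicate 3, 59 probe sets passed, 2 higher and 57 lower, and none belonged to the 6 genes.

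Of 8 measured genes for ligands and counter-receptors of these molecules, 3 reached the brightness limit. None passed the adjusted threshold, 6 had a difference above 0 and 2 below, their median was 0.37 against 0.05 over all genes, and 0 were at an unadjusted p under 0.05. The share over all genes, each by its brightest probe set, was 3.17% lower and 1.82% higher. Ccl25, which encodes the CCR9 ligand, differed by 0.40 and Cdh1, which encodes E-cadherin, by 0.65, both at dim levels. The genes in the next 2 sentences were named for their pairing with the 6. Madcam1 lay between 5.00 and 5.89, and 2610528A11Rik, which encodes the GPR15 ligand, between 4.40 and 6.50. Vcam1 measured 11.04, 8.79 and 10.52 in treated samples and 10.03, 11.32 and 7.32 in untreated ones, with its lowest value in untreated replicate 3, as for the myeloid mean, and 1 of its 2 other probe sets differed in the opposite direction.

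Other integrin chains showed no group difference that passed. Of 21 measured, 15 had a difference above 0 and 6 below, with a median of 0.11 and 0 at an unadjusted p under 0.05. Itgb4, a β chain of epithelial cells, differed by 0.59 ± 0.32 at a dim level, and Itgb5 by 0.34 ± 0.20. Of 19 genes for the switching on of integrins, 15 were above 0 and 4 below, with a median of 0.11. Among them 1 was at an unadjusted p under 0.05 (5.26%, against 4.99% of all genes), and none passed the adjusted threshold. Zyx, encoding the adhesion site protein zyxin, measured 9.72, 9.23 and 10.60 in treated samples and 9.23, 8.81 and 8.73 in untreated ones (0.93 ± 0.35, limma adjusted p = 0.961). Ptk2b, a focal adhesion kinase gene, differed by 0.51 ± 0.27.

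Signals known to induce gut homing receptors were followed next. Retinoic acid, made from vitamin A in the gut, induces CCR9 and the Itga4 and Itgb7 pair on T cells. Of 17 measured genes of its synthesis, receptors and breakdown, 12 were above 0 and 5 below, with a median of 0.08. None passed the adjusted threshold and 1 was at an unadjusted p under 0.05 (5.88%, against 4.99% of all genes). Rxrb, encoding a retinoid X receptor, measured 9.27, 9.87 and 9.41 in treated samples and 8.94, 8.67 and 8.82 in untreated ones (0.71 ± 0.20, limma adjusted p = 0.961). Rdh10, a retinol dehydrogenase gene, differed by −0.66 ± 0.34 with overlapping groups.

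TGF-beta induces Itgae and Gpr15, and the aryl hydrocarbon receptor encoded by Ahr induces Gpr15 in mouse T cells. Of 24 measured genes of these routes and of lineage control, 11 were above 0 and 13 below, with a median of −0.02. None passed the adjusted threshold, and 3 were higher and 1 lower at an unadjusted p under 0.05. That is 16.7% of the list, against 4.99% of all genes, and the list was chosen with earlier results known. Ahr was the lower one, at 11.08, 10.59 and 11.15 in treated samples against 11.76, 11.39 and 12.32 in untreated ones. All treated values lay below the untreated ones, with a difference of −0.88 ± 0.28 (limma adjusted p = 0.961), and its other probe set had the same sign. Foxp3 differed by 1.19 ± 0.38 (limma adjusted p = 0.961).

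Receptors for other tissues were mixed in direction. Of 27 measured, 13 were above 0 and 14 below, with a median of −0.12, and 3 were higher and 3 lower at an unadjusted p under 0.05. These make 22.2% of the list, against 4.99% of all genes, and the list was chosen with earlier results known. None passed the adjusted threshold. Ccr7, the lymph node entry receptor gene of T and B cells, measured 5.56, 6.24 and 6.18 in treated samples and 8.0, 8.18 and 7.95 in untreated ones (−2.05 ± 0.22, limma adjusted p = 0.227). Ccr3, a receptor gene of eosinophils that was dim here, measured 5.64, 6.15 and 5.88 in treated samples and 6.68, 6.53 and 7.62 in untreated ones (limma adjusted p = 0.961). The untreated samples ranked as for Gpr15, with untreated replicate 3 highest, whereas Ccr7 was even across the 3 untreated samples.

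**Figure D5:**
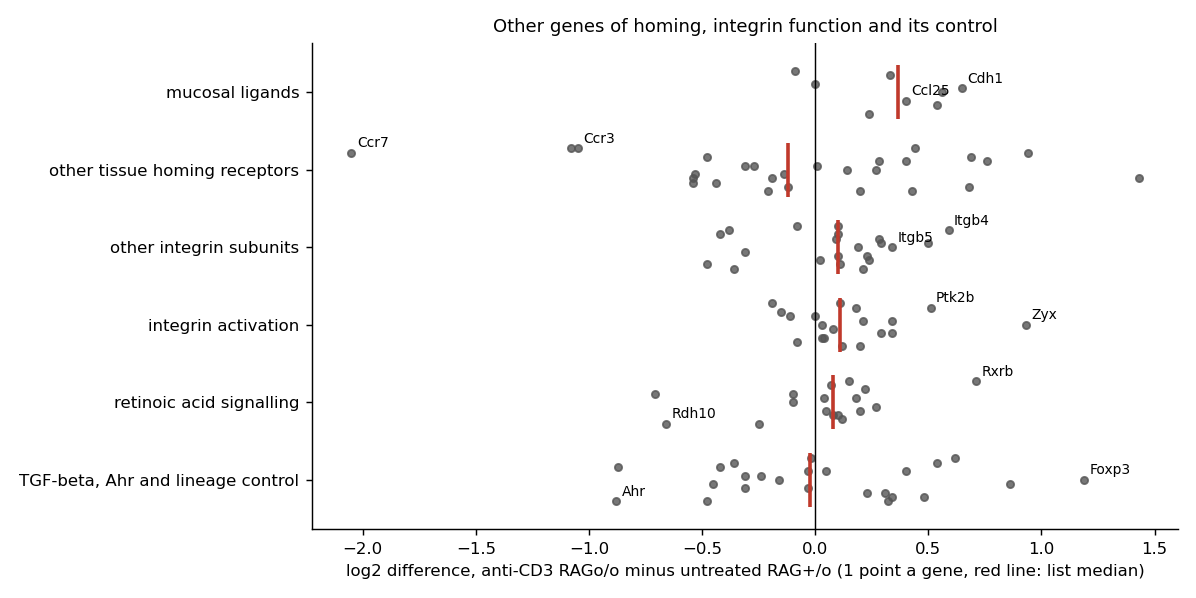
Log2 difference of treated minus untreated Tregs (horizontal axis) for the genes of 6 lists (rows), with 1 point per gene by its brightest probe set and a red line at the list median. Labels mark the 2 genes with the smallest p in each list, and Ccr7 lies farthest from 0 among the labelled ones.

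Genes with a pattern like each member were ranked by Pearson r over the 6 arrays among 6656 genes with a mean of at least 7 and an SD of at least 0.3. Nearest to Gpr15 were Tktl1 (r = 0.977), Themis (0.977), Serinc3 (0.974), Hnrnpdl (0.966) and Dusp19 (0.962). Themis, a T cell signalling gene, measured 8.55, 8.91 and 8.51 in treated samples and 9.34, 9.02 and 9.72 in untreated ones. Serinc3 measured 8.66, 8.56 and 7.63 in treated samples and 10.17, 9.55 and 10.73 in untreated ones, a span close to that of Gpr15. In both, untreated replicate 3 was highest and the groups did not overlap, which the ranking on Gpr15 favours.

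The integrin genes had other neighbours. Nearest to Itgae were Sytl1 (r = 0.999), Igsf23 (0.996) and Capg (0.995), and nearest to Itgb7 were Fam53b (0.997), Hmces (0.997) and Coro7 (0.996). Capg, an actin capping gene, measured 8.96, 9.22 and 11.10 in treated samples and 9.07, 7.84 and 10.05 in untreated ones, with both replicates 3 high as for Itgb7. Those nearest to Itgb1 were Rhof (0.995), Glb1 (0.988) and Stn1 (0.988), with untreated replicate 3 highest. Itga4 was most like Cox15 (0.989), Fen1 (0.989) and Pcmtd1 (0.986), and Ccr9 like Nr2c2 (0.989), Purb (0.989) and Dnaja2 (0.988). With 6 points, high values of r arise readily among so many genes.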

How the data were processed

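The series holds 6 Affymetrix M430v2 arrays of Treg RNA, amplified in 2 rounds per the labels' protocols. The deposited values are RMA intensities on a linear scale, made by the authors in GenePattern per the series' design text, and log2 was taken here. RMA evens out the arrays, so a shift common to most transcripts cannot be seen. The groups were fitted with limma 3.58.1 in R 4.3.3 over all 45037 probe sets, each on its own, with Benjamini-Hochberg adjustment and a threshold of 0.05, and tested on simulated data. Each array held 1 mouse, so p-values rest on the spread between mice, and precision is limited by having 6 arrays. Gene symbols came from the platform annotation, where 34741 of 34945 probe sets with 1 symbol matched a current gene ID. A listed gene was read by its brightest probe set, and the 2 with the smallest p per list were named. Members and lists were chosen with earlier results of these data known. Alternatives covered covariates, filters, scalings, array weights and left-out samples. Plots used Python 3.11.15 and matplotlib 3.10.9.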

Additional observations from a re-analysis of the deposited data

How the results depend on the processing

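Gpr15 kept a negative difference in all 17 alternatives, between −2.58, against untreated replicate 3 alone (added after the data were seen), and −1.53. It was picked from this contrast and its groups do not overlap, so leaving out samples could not turn the sign. With the replicate block the Gpr15 difference was −1.88, and 0 probe sets passed with the block. Same-numbered samples deviated from their group means with correlations of 0.45, 0.08 and 0.09, so the numbers were not taken as pairs, and 4 of 6 samples matched best the same number in the other group. Of the 45037 probe sets, 5 passed with array weights (1 higher, 4 lower) and 2 against untreated replicate 3 alone, where that sample is assumed to vary like the treated ones. Leaving out 1 sample at a time gave 0 to 59, the 59 without untreated replicate 3. None of these calls was among the 20, and the remaining settings, an adjusted p of 0.1 included, gave 0. Member probe sets without overlap numbered 3 of 20, with 10.2% of all probe sets so. With 1 probe set per gene it was 1 of 6 (10.9% of all genes), with a sample left out 4 to 7 of 20 (16.2 to 22.5% of all probe sets), and against untreated replicate 3 alone 9 of 20 (38.5%), so the share over all probe sets also rose wherever samples were left out. They were not counted for fits that leave the values as they are. Of the 20, 9 kept their sign throughout and 11 did not. Quantile normalization and median centring turned no sign. With 3 mice a group and 9 dim probe sets, small differences could not be resolved.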

Other observations

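Among the listed genes for control of homing, the means of the TGF-beta receptor genes Tgfbr1 and Tgfbr2 were lower in treated samples and that of Runx3 was higher. The 3 were named after their values were seen. Tgfbr1 measured 10.83, 9.18 and 11.12 in treated samples and 11.30, 10.57 and 11.86 in untreated ones, and 1 of its 2 other probe sets differed in the opposite direction. Tgfbr2 measured 10.63, 10.27 and 11.20 in treated samples and 11.14, 11.04 and 11.26 in untreated ones. Runx3, which supports Itgae in T cells, measured 8.44, 9.0 and 8.74 in treated samples and 8.61, 8.18 and 8.20 in untreated ones. None of the 3 passed the limma test (adjusted p = 0.961 for each), and the groups overlapped in all of them.

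Ccr10, a receptor gene for the mucosal chemokine CCL28, was also singled out afterwards. It measured 9.05, 9.30 and 9.22 in treated samples and 8.69, 7.50 and 9.08 in untreated ones, the difference of 0.76 ± 0.39 (SE) coming with overlapping groups (limma adjusted p = 0.961). The adhesion integrin genes Itgal and Itgb2 were bright on every array. Itgal measured 11.68, 11.76 and 11.43 in treated samples and 11.68, 12.13 and 12.01 in untreated ones, while its other probe set differed in the opposite direction. Itgb2 lay between 12.40 and 12.80 throughout.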
